A study of Homo sapiens with 4 samples.

Results

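The chromosome 19 zinc finger genes described here are the 232 protein-coding genes whose symbol is ZNF followed by a digit and whose position is on chromosome 19, of 29833 genes in the deposited expression table. The rule uses name and position and no measured value. RNA-seq was performed on Reh-6-MPR cells, a derivative of Reh, an established human line of B-cell acute lymphoblastic leukemia, made resistant to 6-mercaptopurine (6-MP) by stepwise exposure, and it asked which genes respond when histidine restores the sensitivity to 6-MP. The 4 libraries, 1 for each treatment, came from cells kept for 48 h with vehicle (PBS), with histidine at 4 mM, with 6-MP at 1.0 μg/mL, or with histidine and 6-MP at these doses (the combined treatment). All 4 groups share the labelled wild-type genotype, and the methods state that resistant cells were kept without 6-MP for a period before experiments.

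C2H2 zinc finger proteins bind DNA through fingers, short repeated modules in which cysteines and histidines hold a zinc ion, and each finger reads a few bases. Many of them also carry a KRAB domain, which recruits TRIM28 (KAP1) and, through it, enzymes that place repressive histone marks. In the human genome a large share of these genes lies in tandem clusters on chromosome 19 that grew by gene duplication, and many of the proteins are known for silencing transposable elements.

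The coding sequences of GENCODE 29 gave the domain content of the members. A C2H2 finger pattern was found in 231 of the 232 proteins, with a median of 12 fingers and up to 31 in ZNF91, and not in the listed protein of ZNF738. A match to the KRAB A box was found in 165 members (71.1%), beside 1.47% of the 19573 coding genes searched. The match is to a short pattern in the longest coding transcript, so a gene without a match may still encode the domain. The finger-coding DNA follows for members that the results turn on, 5′ to 3′ on the coding strand, as the first finger that is followed by the conserved linker to the next finger. Capitals mark the codons of the 2 cysteines and 2 histidines that hold zinc.
ZNF443 (chr19:12431500-12431577, minus strand): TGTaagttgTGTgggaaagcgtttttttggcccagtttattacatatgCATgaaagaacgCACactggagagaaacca
ZNF441 (chr19:11780752-11780829, plus strand): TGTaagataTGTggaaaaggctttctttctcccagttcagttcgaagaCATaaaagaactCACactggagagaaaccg
ZNF93 (chr19:19933478-19933555, plus strand): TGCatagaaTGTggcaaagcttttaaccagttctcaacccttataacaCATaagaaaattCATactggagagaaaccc
ZNF681 (chr19:23744455-23744532, minus strand): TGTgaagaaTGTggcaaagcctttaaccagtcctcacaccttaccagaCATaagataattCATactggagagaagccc
ZNF91 (chr19:23362100-23362177, minus strand): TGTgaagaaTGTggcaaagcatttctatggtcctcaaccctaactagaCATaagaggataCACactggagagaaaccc
ZNF146 (chr19:36236660-36236737, plus strand): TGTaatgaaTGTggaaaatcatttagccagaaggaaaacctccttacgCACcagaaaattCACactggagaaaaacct

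These exonic stretches are on GRCh38 and 78 bases long. The fingers of ZNF93 and ZNF681, both in the same cluster, were identical at 66 of the 78 bases, and those of ZNF443 and ZNF93 at 43. Over the 192 members with a finger of this length, the median identity between pairs was 69.2% within clusters and 62.8% between clusters. Such similarity bears on the counts, because a read from one member can fit another. A median of 8.86% of a member's 31-base words also occurred in transcripts of another gene, and the share was over 50% in 12 members. How the authors' counting treated such reads is not given in the sources used here.

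Of the 232 members, 174 reached a mean FPKM of 1 across all 4 libraries, and these were tested within a total of 12750 genes. FPKM is the number of reads of a gene scaled to the gene's length and to the size of the library. Fold changes are differences of log2(FPKM + 1), which understate the change of weakly expressed genes. With 1 library per treatment there is no replicate check and no p-value, so a gene is said to pass the fold threshold at a log2 fold change of 1, and nothing more is claimed. The whole reads behind the FPKM values were recovered for every member, and intervals are exact Clopper-Pearson 95% intervals of read ratios, which cover counting error only. The libraries held 12899122 (combined treatment) to 15486376 (histidine) reads. The combined-treatment library had reads in 25443 genes, and the other 3 in 23635 to 23978. Of the 9 B-cell precursor markers listed, all had a mean FPKM of at least 1. They summed to an FPKM of 1535 to 1628, no T cell marker was listed, and the 3 erythroid markers listed summed to 0.49 or less, highest with the combined treatment, with HBB at 0 in all libraries but that with histidine. The myeloid gene MPO was at an FPKM of 26.4 to 27.7 with vehicle and 6-MP, 30.5 with histidine and 41.0 with the combined treatment, LYZ at 0.037 to 0.324 in the other 3 libraries and 1.39 with the combined treatment, and CD14 at 0.17 or less. The stromal gene COL1A1 was at 0.87 to 1.05 and, with the combined treatment, 2.04. The part of these markers in the results was not tested.

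The members were higher with the combined treatment as a group, by a small amount each. Their summed reads made up 0.410% of the library with vehicle, 0.429% after histidine, 0.426% after 6-MP and 0.568% after both. The log2 ratio of the combined treatment to vehicle was 0.47 (95% interval 0.45 to 0.49) over all 232 members, and 0.24 (0.23 to 0.26) over the 235 ZNF genes on other chromosomes. The combined treatment was the highest of the 4 libraries in 127 of the 174 members tested (73.0%), where 53.8% of all genes tested had it highest. It was the lowest in 20, where the share of all genes was 28.8%. On other chromosomes it was the highest in 76.4% of the 55 tested ZNF genes with a KRAB match and 67.9% of the 131 without. Without the filter on FPKM it was the highest in 167 of the 232 members and the lowest in 24.

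Against vehicle, the median log2 fold change of the combined treatment was 0.33 over the members tested, and 145 of the 174 (83.3%) were higher, beside 63.6% of all genes and 81.2% of the ZNF genes on other chromosomes. Against 6-MP the median was 0.29, and against histidine it was 0.28. These 3 comparisons share the combined-treatment library. The median of all genes tested was 0.13, 0.13 and 0.11 in the same order, and that of the 9823 other protein-coding genes was 0.11, 0.10 and 0.092. Over all 232 members, with none left out, the medians were 0.30, 0.26 and 0.25. The filter let 7 members through, ZNF441 among them, whose mean over the other 3 libraries was under 1, and with the filter set on those 3 libraries the median against vehicle was 0.33 over 167 members. Scaling by the median ratio brought the median of all genes against vehicle from 0.13 to -0.000074, and that of the members to 0.20, with 131 of 174 members higher.

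Few members passed the fold threshold. Against vehicle 6 members were past a log2 fold change of 1 and 0 past -1, where the shares of all genes tested were 5.01% and 1.51%. Against 6-MP the counts were 7 and 0 (background 4.82% and 1.2%), and against histidine 5 and 0 (4.15% and 1.4%). The members past 1 were 3.45%, 4.02% and 2.87% of those tested, beside 3.46%, 3.10% and 2.84% of all protein-coding genes, so these counts lie near the background. At a log2 fold change of 0.5 against vehicle 55 members (31.6%) were higher and 0 lower, where 19.7% and 7.37% of all genes were. With a pseudocount of 0.1 in place of 1, 22 members (12.6%) passed 1 against vehicle, beside 9.25% of all genes and 6.29% of protein-coding genes. After the median-ratio scaling 3 did (1.72%, beside 3.63% and 2.36%), ZNF443, ZNF548 and ZNF93.

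**Figure D1:**
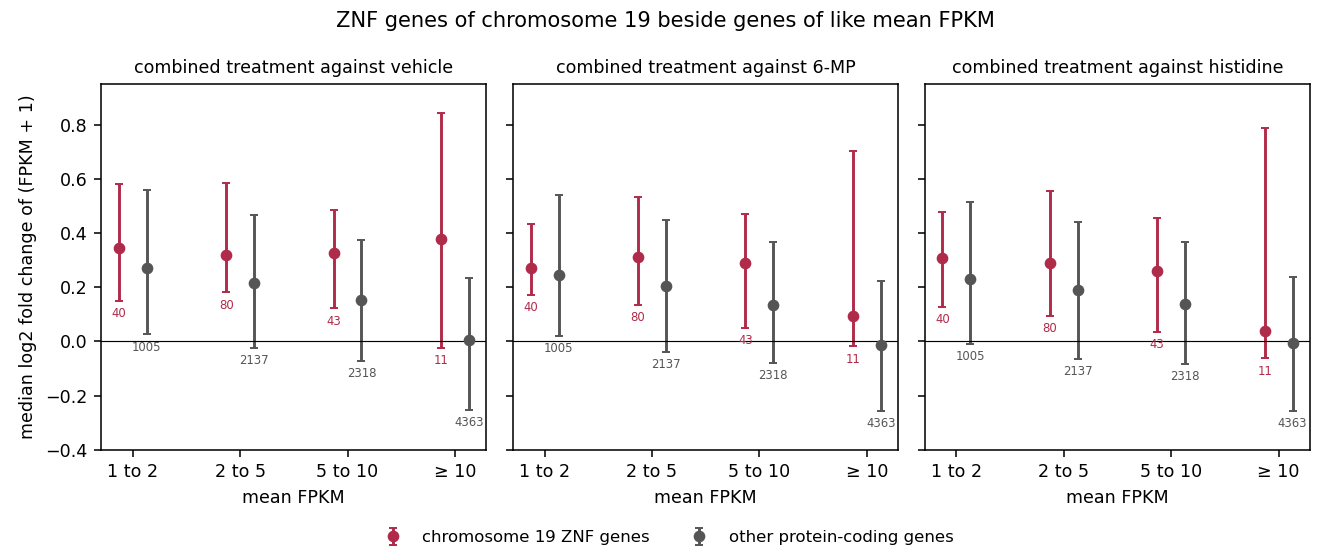
Median log2 fold change of (FPKM + 1) of the combined treatment against vehicle, 6-MP and histidine, in 4 bins of mean FPKM. Points are medians over genes, bars run from the lower to the upper quartile of the genes (not replicate error), and the number of genes stands under each bar. The ZNF genes of chromosome 19 (red) lie above the other protein-coding genes (grey) in each bin, 0.33 against 0.15 versus vehicle at a mean FPKM of 5 to 10.

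Weakly expressed genes were in general higher with the combined treatment, so the members were set beside other protein-coding genes of like mean FPKM. At a mean FPKM of 1 to 2 the median against vehicle was 0.34 for 40 members and 0.27 for 1005 other genes. At 2 to 5 it was 0.32 for 80 members and 0.22 for 2137 other genes. At 5 to 10 it was 0.33 for 43 members and 0.15 for 2318 other genes, and at 10 and above it was 0.38 for 11 members and 0.0045 for 4363 other genes. These 11 members were divided, with 6 higher than vehicle and a lower quartile of -0.023, and their median was only 0.095 against 6-MP and 0.040 against histidine. The members' medians were alike over the first 3 bins while those of the other genes were lower in each bin of higher FPKM. Weighted to the members' bins, the other genes had a median of 0.20 against vehicle, and the members were 0.13 higher. The same difference was 0.10 against 6-MP and 0.11 against histidine. With bins of both FPKM and gene length it was 0.13 against vehicle.

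The other groups of zinc finger genes had medians between those of the members and of all genes, or like the members. The 186 ZNF genes of other chromosomes that were tested had medians of 0.25, 0.23 and 0.19 against vehicle, 6-MP and histidine. Other protein-coding genes of chromosome 19, 620 in number, had 0.081, 0.061 and 0.032. The 10 genes of chromosome 19 named ZFP, ZSCAN, ZIM or ZBTB that were tested had 0.32, 0.30 and 0.36, with 8 of 10 higher than with vehicle. Transcripts of members hold little GC, a median of 42.7% beside 49.5% in other protein-coding genes, and the members' medians differed by GC class. The 44 members with a GC content under 40% had a median of 0.54 against vehicle (other genes 0.17), and the 57 at 40% to 44% had 0.34 (0.085). The 33 members at 44% to 48% had 0.22 (0.060), the 14 at 48% to 52% had 0.30 (0.082), and the 26 at 52% and above had 0.20 (0.13). Neither set ran steadily over the 5 classes. In bins of both mean FPKM and GC content the members were 0.15 above the other genes. The part of GC content in the differences among members was not tested.

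Read by read, 98 of the 174 members tested (56.3%) had 95% intervals above 0 in all 3 read ratios of the combined treatment. In 3 members (1.72%) all 3 intervals were below 0. Of all genes tested 34.3% and 16.6% had them above and below, and of protein-coding genes 37.8% and 20.1%. For the 186 tested ZNF genes on other chromosomes the shares were 48.4% and 5.38%. Without the filter the counts of members were 117 and 3 of 232. The 3 lower members were ZNF507, ZNF749 and ZNF587B. After the median-ratio scaling 72 of the 174 members had all 3 intervals above 0 and 11 below, beside 23.2% and 24.4% of all genes. The shares of ZNF genes on other chromosomes were then 31.7% and 10.8%.

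ZNF443 had the largest difference among the members tested. It encodes a KRAB protein with 16 fingers and lies at chr19:12429706-12441021 on the minus strand. ZNF443 stood at 1.08 FPKM in the vehicle library, 1.12 after histidine, 0.86 after 6-MP and 4.34 after the combined treatment, from 41, 46, 35 and 149 reads. The combined treatment stood apart from the other 3 libraries, which lay close together. The log2 fold change was 1.36 against vehicle, 1.52 against 6-MP and 1.34 against histidine, and the read ratio to vehicle was 2.01 on the log2 scale (1.505 to 2.55). ZNF443 shares 56.4% of its 31-base words with other genes, so its reads are uncertain.

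Its neighbours on the same strand were weak, and those before it had more reads with the combined treatment. ZNF799, the next member before ZNF443, had 23, 17, 40 and 83 reads with vehicle, histidine, 6-MP and the combined treatment, and ZNF442, the member before that, had 3, 3, 3 and 16. Their mean FPKM was under 1. The intervals of their read ratios to vehicle, 1.32 to 2.74 and 0.76 to 4.99, lay above 0. ZNF709, the next member after ZNF443, had 1, 4, 1 and 1 reads, too few to show a difference. ZNF799, ZNF442 and ZNF709 share 33.6%, 10.7% and 78.6% of their 31-base words with other genes, so their reads are uncertain too. Whether reads of ZNF443 were counted for its neighbours was not tested. ZNF441, a KRAB protein of 14 fingers in the same cluster, had an FPKM of 1.15, 0.76, 0.99 and 3.17 and shares 2.83% of its words with other genes. It passed the filter on FPKM only through the combined-treatment library, so that it had to be higher there.

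ZNF548, a KRAB protein of 11 fingers, had the next largest difference. Its level was 6.96 FPKM in vehicle, 6.90 after histidine, 6.04 after 6-MP and 18.4 after the combined treatment, from 614, 658, 571 and 1462 reads. Its log2 fold change was 1.28 against vehicle, 1.46 against 6-MP and 1.30 against histidine. It lies at chr19:57389850-57402992, and its neighbours did not share this difference. ZNF547, the member before it, had a log2 fold change of 0.35 against vehicle, ZNF17, the member after it, had 0.048, and ZNF749, next but one, had -0.34. ZNF749 had an FPKM of 7.28, 8.17, 6.85 and 5.53, lowest with the combined treatment, with a read ratio to vehicle of -0.39 (-0.60 to -0.19). ZNF548 and ZNF749 both overlap the same noncoding gene, ENSG00000268533, on the same strand.

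ZNF93, a KRAB protein of 16 fingers known to repress a LINE-1 retrotransposon family, had an FPKM of 5.22 in vehicle, 4.86 after histidine, 5.81 after 6-MP and 13.7 after the combined treatment. The log2 fold change was 1.24, 1.11 and 1.32 against vehicle, 6-MP and histidine. ZNF91, known to repress SVA elements, was at 4.75, 4.37, 4.53 and 7.52, a log2 fold change of 0.57 against vehicle with a read ratio of 0.66 (0.52 to 0.80). ZNF681, ZNF726 and ZNF561 also had their highest FPKM with the combined treatment, at 5.47, 5.09 and 12.8, beside 2.07 to 2.42, 2.002 to 2.33 and 5.54 to 6.31 in the other 3 libraries. ZNF331, an imprinted gene with 12 fingers, was at 6.498, 7.51, 6.29 and 14.3 in the same order of libraries, a log2 fold change of 1.03 against vehicle and 0.85 against histidine.

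**Figure D2:**
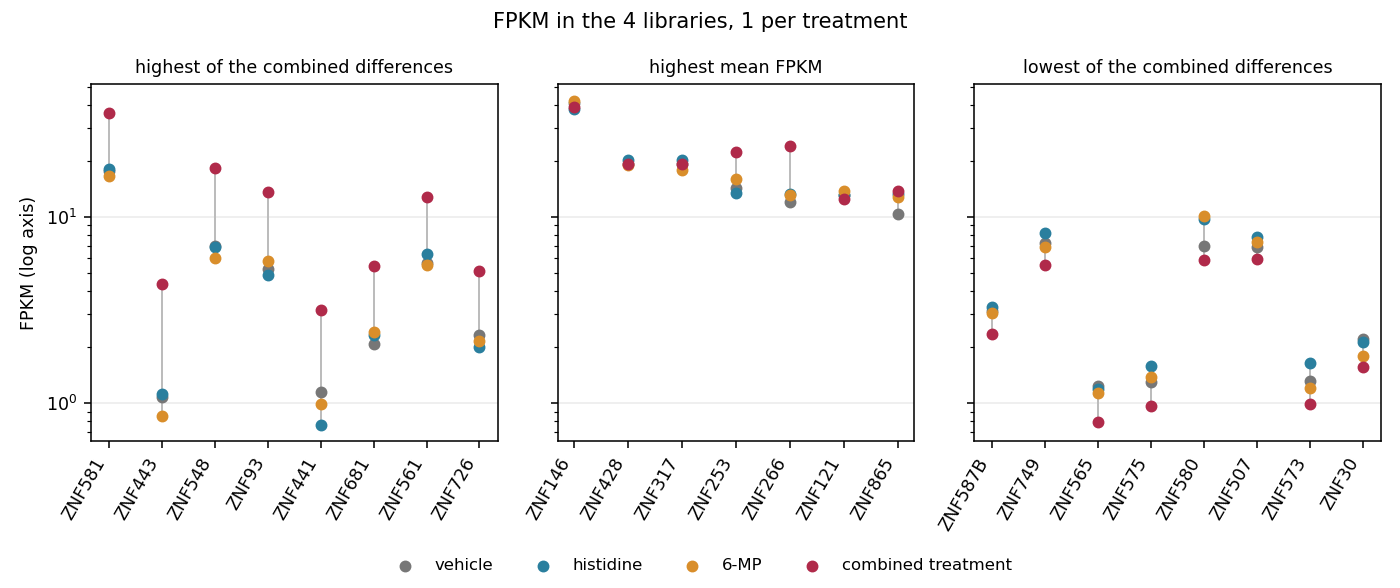
FPKM on a log axis in each of the 4 libraries, for the members highest in all comparisons of the combined treatment, those with the highest mean FPKM (ZNF581 stands in the left panel), and those lowest in all its comparisons. Each point is 1 library and the grey line runs from the lowest to the highest. In the left panel the red points stand apart above 3 points that lie close together, and in the right panel they lie lowest by a smaller distance.

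Of the 8 most abundant members, 4 had log2 fold changes near 0 against vehicle and 4 were higher. ZNF146, with 10 fingers and no KRAB match, had the highest mean FPKM, 40.8 with vehicle, 37.98 after histidine, 42.1 after 6-MP and 38.8 after both, and the interval of its read ratio to vehicle, -0.16 to 0.01, included 0. ZNF428, ZNF317 and ZNF121 had log2 fold changes against vehicle of -0.012, -0.0028 and -0.058. ZNF865 was at an FPKM of 10.3 with vehicle and 12.8 to 13.7 in the 3 treated libraries. Besides ZNF581, 2 more were higher with the combined treatment than in the other 3 libraries. ZNF266 was at 12.1, 13.3, 13.1 and 24.1, and ZNF253 at 14.4, 13.4, 15.9 and 22.3, in the order vehicle, histidine, 6-MP and combined treatment.

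ZNF580 and ZNF581 went opposite ways. They are short genes without a KRAB match that overlap on the same strand, from 55635016 and 55635459, and CCDC106 overlaps both, so the counting could divide their reads. ZNF581 had an FPKM of 17.6, 18.2, 16.6 and 36.3, a log2 fold change of 1.00 against vehicle (just under the threshold), 1.08 against 6-MP and 0.96 against histidine. ZNF580 was at 7.001 with vehicle, 9.70 after histidine, 10.1 after 6-MP and 5.86 after both, higher in both single treatments and lowest in the combined one. Against 6-MP its log2 fold change was -0.69, with a read ratio of -0.79 (-1.04 to -0.54).

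The other lower members differed by little. ZNF587B had an FPKM of 3.10, 3.26, 3.03 and 2.35, and ZNF507, a gene with 3 fingers that stands alone by the rule for clusters, had 6.87, 7.77, 7.31 and 5.93. ZNF565, ZNF575, ZNF573 and ZNF30 lay between 1.13 and 2.21 in the first 3 libraries and between 0.79 and 1.55 with the combined treatment. For ZNF575 and ZNF573 the interval of the read ratio to vehicle included 0. Of the 8 lowest members by rule, 6 had no KRAB match, and of the 8 highest, ZNF441 among them, 7 had one. Of the 174 members tested, 119 had a match.

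The single treatments left the members nearly where they were. For histidine against vehicle the median was 0.035 and 0 members passed the fold threshold in either direction, where 1.33% of all genes tested did. For 6-MP against vehicle the median was 0.029 with 0 members past it and a background of 1.18%. Of the 9997 protein-coding genes tested, only 15 were past 1 and 4 past -1 with histidine, and 12 and 3 with 6-MP. The counts of 0 therefore lie near the background of protein-coding genes. The largest difference among the members was that of ZNF296, with an FPKM of 2.52 with vehicle and 4.89 with histidine (63 and 132 reads). Its log2 fold change was 0.74, with a read ratio of 0.95 (0.51 to 1.41). It was at 2.62 with 6-MP and 3.07 with the combined treatment. ZNF579 was at 5.43 with vehicle, 7.86 after histidine, 7.79 after 6-MP and 6.37 after both, and its log2 fold change was 0.46 and 0.45 for the single treatments. ZNF579 and ZNF580, which stood out in both, lie near each other at the start of the same cluster. The departure from additivity is the log2 fold change of the combined treatment against vehicle, less the fold changes of the single treatments. It had a median of 0.28 over the members and 0.11 over all genes tested. It ran from -1.11 in ZNF580 to 1.496 in ZNF443.

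A gap of over 1 Mb between members divided them into 16 clusters, of which 7 hold 10 or more members and 211 of the 232 in all. Of these 7, the cluster numbered 5 stood highest in all 3 comparisons of the combined treatment. It spans chr19:19668796-24129968 and holds 29 members, 25 of them tested. Of these, 24 were higher with the combined treatment than with vehicle, 24 had it as the highest library, and 24 had all 3 intervals of the read ratios above 0. The shares of all genes tested were 63.6%, 53.8% and 34.3%. ZNF492, in this cluster, passed the filter on FPKM only through the combined-treatment library, so that it had to be higher there. The median of the cluster's members was 0.55 against vehicle, 0.54 against 6-MP and 0.53 against histidine. It was -0.034 and 0.031 for histidine and 6-MP against vehicle. The 14 tested noncoding genes within the same span had a median of 0.41 for the combined treatment against vehicle. All 2753 noncoding genes tested had 0.25, and those in the spans of the other large clusters had medians from -0.037 (cluster 15) to 0.47 (cluster 9). The exception among the 25 tested members of cluster 5 was ZNF101, the first member by position, with an FPKM of 4.11, 3.41, 3.44 and 3.63. The difference between this cluster and the others was not tested.

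Within cluster 5 the log2 fold change against vehicle ran from -0.14 in ZNF101 to 1.24 in ZNF93, and 16 of the 25 members reached 0.5. ZNF493, ZNF43, ZNF430 and ZNF675 were among them, with 0.74, 0.61, 0.67 and 0.58. ZNF708, ZNF714 and ZNF737 were lower, at 0.31, 0.33 and 0.28. The members here are alike in sequence, with a median finger identity of 83.3% over 26 members. Their single levels are therefore uncertain, and whether more so than those of other members was not tested. Division of reads within the cluster would leave its sum unchanged. The sum would change if reads that fit several genes were dropped, counted more than once or given to genes outside the cluster. The summed reads of the cluster were 10291 with vehicle, 10747 after histidine, 11252 after 6-MP and 14503 after both, the smallest library.

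**Figure D3:**
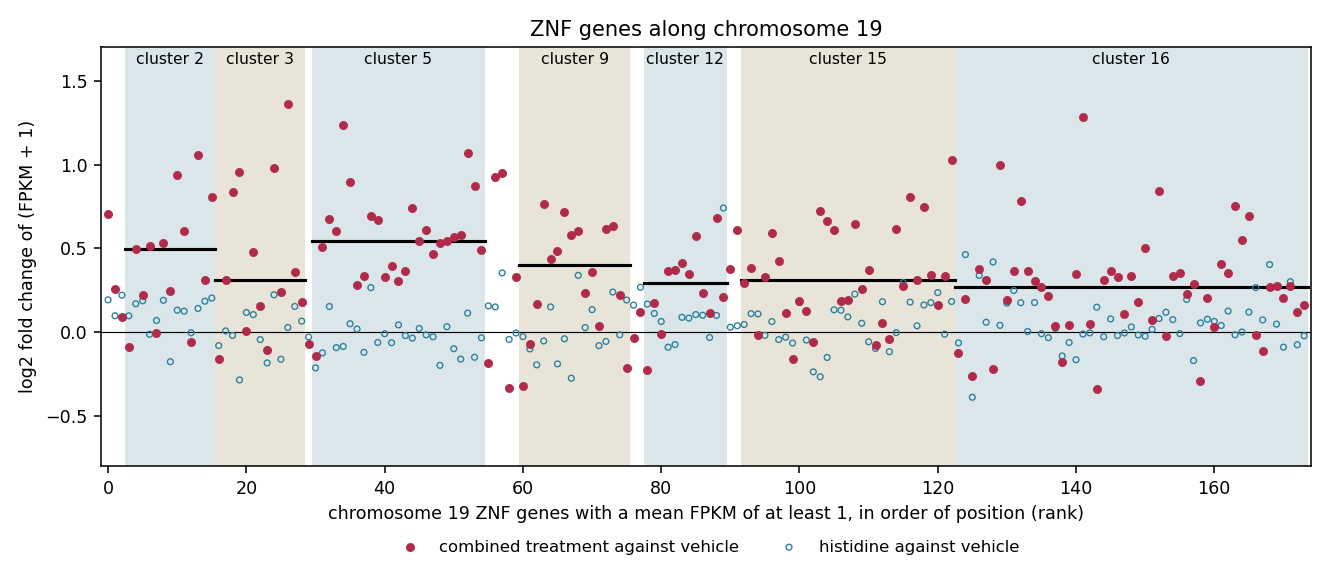
Log2 fold change of (FPKM + 1) against vehicle for the 174 members tested, in order of position along chromosome 19, for the combined treatment (filled) and histidine (open). Shading marks the 7 clusters of 10 or more members and black lines their medians for the combined treatment. In cluster 5 all filled points but 1 lie above 0, and its line, at 0.55, is the highest.

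The other large clusters had lower medians, while cluster 8, with only 4 members tested, had 0.63 against vehicle. Cluster 2, at chr19:7069703-9793180, had a median of 0.50 against vehicle over 13 members tested but 0.31 against 6-MP, and histidine alone gave 0.13 there. Cluster 3, with ZNF441 and ZNF443, had 0.31 over 13 of its 25 members, and 12 members were too weak to test. Clusters 9, 12 and 15 had 0.40, 0.29 and 0.31. Cluster 16, the largest with 58 members at chr19:55476617-58481230, had 0.27, the lowest of the 7, although it holds ZNF548 and ZNF581. After the median-ratio scaling the medians of the 7 clusters ran from 0.16 in cluster 16 to 0.43 in cluster 5.

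Members of cluster 5 also share their promoters. RefSeq promoter windows of GRCh38.p14, 250 bases before to 50 after the start, matched 205 of the 232 members by symbol. The 80 bases before the start of 5 members of cluster 5 are shown because these members were all higher with the combined treatment. Capitals mark CCAATCAG, which holds the CCAAT box, and GCTTCCGG, which holds the core that ETS factors bind. Both words were chosen after these promoters had been read.
ZNF93 (chr19:19900866-19900945, plus strand): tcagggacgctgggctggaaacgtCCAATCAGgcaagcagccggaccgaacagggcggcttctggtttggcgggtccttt
ZNF681 (chr19:23758892-23758971, minus strand): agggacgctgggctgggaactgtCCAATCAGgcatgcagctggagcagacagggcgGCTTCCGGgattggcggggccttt
ZNF726 (chr19:23914806-23914885, plus strand): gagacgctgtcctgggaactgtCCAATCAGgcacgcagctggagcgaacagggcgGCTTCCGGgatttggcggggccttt
ZNF91 (chr19:23395472-23395551, minus strand): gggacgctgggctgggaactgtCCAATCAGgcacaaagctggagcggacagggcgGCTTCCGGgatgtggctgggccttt
ZNF43 (chr19:21836183-21836262, minus strand): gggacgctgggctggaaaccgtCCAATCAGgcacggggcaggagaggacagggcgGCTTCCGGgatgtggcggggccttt

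CCAATCAG, searched on both strands, was in the windows of all 25 matched members of cluster 5, in 21 of 24 in cluster 3, and in 0 or 1 member of each of the other 5 large clusters. It was in 25.9% of the members' windows, 11.2% of those of ZNF genes on other chromosomes and 4.16% of all 27305 windows. Cluster 3 carries the word as cluster 5 does, and its median was lower. Outside cluster 5, the 15 tested members with CCAATCAG had a median of 0.26 against vehicle, and the 121 without it 0.30. GCTTCCGG was in 17 of the 25 windows of cluster 5, 13 of 30 in cluster 15, 4 of 14 in cluster 2 and 7 of 53 in cluster 16. In clusters 3, 9 and 12 it was in 0. It was in 21.0% of the members' windows, 15.4% of those of ZNF genes on other chromosomes and 3.90% of all windows. In cluster 5 the 16 tested members with it had a median of 0.56 and the 6 without it 0.52.

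The word ACTTCCGG, another form of the ETS core, was in 43 members' windows (21.0%) and in 14.4% of those of ZNF genes on other chromosomes. It was in 7.36% of those of 11979 other protein-coding genes of the table and in 4.44% of all windows. It was in 26 of the 53 windows of cluster 16 and in none of the 25 of cluster 5. Of the members tested, the 32 with the word had a median of 0.28 against vehicle and the 126 without it 0.33. The 30-base windows below, in which capitals mark the word, show its setting in 4 members of cluster 16.
ZNF547 (chr19:57363412-57363441, plus strand): aggagggcgggACTTCCGGcgtcctcttgc
ZNF773 (chr19:57499857-57499886, plus strand): caatgggcgggACTTCCGGcgtctcccctc
ZNF776 (chr19:57746785-57746814, plus strand): ataaaggtgggACTTCCGGcgtcctctact
ZNF586 (chr19:57769632-57769661, plus strand): gtcaagccaggACTTCCGGcgtcctagccg

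These 4 members had log2 fold changes of 0.35, 0.33, 0.35 and 0.23 against vehicle. The words GCATGCGC, part of the NRF1 motif, and AAGATGGC, part of the YY1 motif, were in 3.90% and 6.83% of the members' windows. The shares were 4.89% and 4.67% in other protein-coding genes, and 7.98% and 3.19% in ZNF genes on other chromosomes. They were 3.27% and 3.03% in all windows. A word in a window is a description and says nothing of a factor's binding.

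By protein features, members with a KRAB match had a median of 0.34 against vehicle over 119 genes tested, and the 55 without one had 0.27. Against histidine the medians were 0.34 and 0.13. The combined treatment was the highest library in 95 of the 119 (79.8%) and in 32 of the 55 (58.2%), beside 53.8% of all genes tested. The 3 members with all intervals below 0 were among the 55 without a match. ZNF genes of other chromosomes gave 0.23 with a KRAB match (55 genes) and 0.26 without (131 genes). The combined treatment was the highest library in 76.4% and 67.9% of them. By finger number the medians were 0.30 for under 10 fingers, 0.33 for 10 to 14 and 0.37 for 15 or more. Members with a KRAB match also had a lower GC content, a median of 42.3% beside 46.9%, and a lower mean FPKM, 2.90 beside 4.52, whose part in the difference was not tested.

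The partners through which KRAB proteins act were, on balance, not higher with the combined treatment. All 21 genes of the list were tested, and 7 were above vehicle and 14 below, with a median of -0.16, where 63.6% of all genes tested were above. Most of the 21 had a mean FPKM above 10. Of the other protein-coding genes at a mean FPKM of 10 and above, 50.4% were above vehicle, with a median of 0.0045. UHRF1, which reads hemimethylated DNA for maintenance methylation, was the only one of the 21 past the fold threshold. UHRF1 had an FPKM of 442 in vehicle, 436 after histidine, 440 after 6-MP and 183 after both, and its log2 fold change of -1.27 was -1.43 after the median-ratio scaling. DNMT1, the maintenance methyltransferase that UHRF1 recruits, was at 41.5, 42.0, 40.3 and 36.6.

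TRIM28, the corepressor that KRAB domains bind, was at an FPKM of 160 with vehicle, 165 after histidine, 162 after 6-MP and 133 after both, which gives a log2 fold change of -0.27. SETDB1, the H3K9 methyltransferase it recruits, was at 7.81 and 9.48 with vehicle and the combined treatment, and its cofactors ATF7IP and ATF7IP2 had log2 fold changes of -0.090 and -0.25. Of the heterochromatin proteins, CBX5 had 0.36, CBX1 -0.075 and CBX3 -0.22. In the HUSH complex and its helpers, TASOR had 0.16, MPHOSPH8 0.18, PPHLN1 -0.17 and MORC2 -0.27. The NuRD components CHD3, HDAC1 and HDAC2 had -0.21, 0.029 and -0.37. SMARCAD1 had 0.11, the histone chaperone subunits CHAF1A and CHAF1B had -0.098 and 0.34, and SUMO2, of the SUMO pathway, had -0.16. Of the 21 genes, 3 (CBX5, TASOR and CHAF1B) had all 3 intervals of the read ratios above 0 and 9 had them below, beside 34.3% and 16.6% of all genes. Intervals are narrower in genes with many reads, as most of the 21 are. After the median-ratio scaling the shares of all genes were 23.2% and 24.4%, and no count of the 21 is given on that scale.

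The 58 members with a mean FPKM under 1 were higher in reads as well. Together they had 1506 reads with vehicle, 1711 after histidine, 1663 after 6-MP and 2484 after both, a log2 ratio to vehicle of 0.87 (0.78 to 0.97). Other protein-coding genes under the filter, 5416 in number, had 0.77 (0.76 to 0.79), so most of this difference was common to weakly expressed genes. All 3 intervals were above 0 in 19 of the 58 members and below 0 in none, beside 17.5% and 0.628% of the other genes. ZNF418 had 0.22, 0.20, 0.20 and 0.89 FPKM, with a read ratio to vehicle of 2.04 (1.17 to 3.01), and ZNF829 had 0.26, 0.33, 0.38 and 0.93. Both were chosen after their values had been seen.

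Overlap with other genes is common among the members, 67 on the same strand and 109 on the other. The 40 tested members that overlap no listed gene and share at most 10% of their words had medians of 0.33, 0.29 and 0.27 against vehicle, 6-MP and histidine, beside 0.33, 0.29 and 0.28 for all 174.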

How the data were processed

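RNA was extracted with Trizol from Reh-6-MPR cells, libraries were made with a stranded mRNA kit, and the authors deposited 1 table of FPKM values for 4 libraries. The submitters' processing notes name Trimmomatic, HISAT2, Cufflinks, HTSeq and the GRCh38 (hg38) genome, without versions. How reads that fit several genes were counted is not given in the sources used here.

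From the deposited FPKM, log2(FPKM + 1) was compared between libraries over 12750 genes, those whose mean FPKM reached 1. Whole reads were recovered from the steps between FPKM values, for 29832 of 29833 genes, and read ratios carry exact Clopper-Pearson 95% intervals, which cover counting error only and compare libraries rather than treatments. Without replicates no p-value was computed. For 13 members the recovered reads rest on a multiple of the smallest step that fitted the annotated length. Gene models came from GENCODE 29 and promoters from RefSeq (GRCh38.p14). Scripts ran under Python 3.11.15 with numpy 2.4.6, pandas 2.3.3, scipy 1.17.1 and matplotlib 3.10.9, and were tested on simulated data.

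Genes were named by rule: the 8 members of highest mean FPKM, the 8 highest and 8 lowest over the 3 comparisons of the combined treatment, the largest differences of each single treatment, all members past the fold threshold and the KRAB partners, of which 1 is counted but not reported here by name. Other genes were named after their values were seen. The members and lists were chosen with earlier results of these data known. Alternatives were the pseudocount, the filter, the scaling, the threshold and the bins.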

Additional observations from a re-analysis of the deposited data

Results flagged for a closer look

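In 5 members histidine went opposite ways without and with 6-MP, by at least 0.25 on the log2 scale each way, a limit chosen after the values were seen. Each value rests on 1 library per treatment, and the difference was not tested. In ZNF441 the log2 fold change of histidine was -0.29 without 6-MP and 1.07 with it, a departure from additivity of 1.35. ZNF441 passed the filter on FPKM only through the combined-treatment library. In ZNF345, with an FPKM of 1.28, 0.886, 1.14 and 2.40 in the order vehicle, histidine, 6-MP and combined treatment, the values were -0.28 and 0.67, a departure of 0.94. In ZNF610, with an FPKM of 3.84, 3.02, 4.19 and 6.99, they were -0.27 and 0.62, a departure of 0.89. The other members went the opposite way. In ZNF579 histidine gave 0.46 without and -0.25 with 6-MP, a departure of -0.72, and in ZNF580 it gave 0.42 and -0.69, a departure of -1.11.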

How the results depend on the processing

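The medians of the 3 comparisons of the combined treatment, and the departure from additivity, were above 0 under every alternative run. Against vehicle, 6-MP and histidine, and for the departure, they were 0.44, 0.41, 0.39 and 0.38 with TPM scaling (208 members in place of 174, since more genes reach a mean of 1 on that scale and the pseudocount weighs less), 0.20, 0.18, 0.19 and 0.19 with median-ratio scaling, and 0.40, 0.39, 0.37 and 0.34 with a pseudocount of 0.1. The difference from other genes of like FPKM was 0.18, 0.18 and 0.19 with TPM scaling. With a mean FPKM of at least 5 it was 0.21 against vehicle, 0.18 against 6-MP and 0.050 for histidine against vehicle. Without a filter that for histidine against vehicle was -0.0061, the 1 result that changed sign. The counts past the fold threshold, against vehicle, 6-MP and histidine, were 29, 18 and 20 of these 208 members with TPM scaling (13.9%, 8.65% and 9.62%, beside 13.6%, 12.7% and 11.7% of all genes). With a pseudocount of 0.1 they were 22, 16 and 14 (12.6%, 9.20% and 8.05%, beside 9.25%, 8.82% and 7.48% of all genes). They were 55, 44 and 52 at a log2 fold change of 0.5, with 1 for histidine against vehicle, and 0, 1 and 0 at 1.5. Median-ratio scaling left 3 against vehicle and 2 against 6-MP. Raising the filter on mean FPKM to 5 left 54 members. Of them, 4 passed against vehicle (7.41%), 5 against 6-MP (9.26%) and 2 against histidine (3.70%). The shares of all genes past that filter were 2.92%, 2.56% and 2.48%, and those of protein-coding genes 2.44%, 2.02% and 2.02%. At this filter the members' shares were thus above the background, though they rest on few genes. Among the 40 members without overlap and with few shared words, chosen as an alternative after seeing the data, the median for 6-MP against vehicle was 0.088. Bins of FPKM and GC content, also added after seeing the data, moved no difference by more than the spread used here. The cause of these shifts was not tested. No paired analysis was possible because the treatments have 1 library apiece, which also means that none was left out. The intervals do not hold the spread between cultures.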
